A study of Mus musculus with 18 samples.

Results

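The question was whether B cells mutant for Med1 rearrange the contacts of an Igh enhancer during activation differently from wild-type (WT) cells. The quantity measured was the interaction of genotype and activation, that is, the log2 change from resting to LPS + IL4 in the mutant minus the same change in WT. It was taken from 12 of the 18 4C-seq libraries of the series: 3 resting and 3 LPS + IL4 libraries of each genotype. The 6 libraries of cultures with LPS alone were not used. Contacts were summed over mouse chromosome 12 (mm10) in 80 windows of 50 kb and 40 windows of 100 kb between 112426025 and 116426024, and in 45 windows of 5 kb over the constant region between 113206204 and 113431024. Each window was expressed relative to the reads of chromosome 12 over 5 kb from the bait, below called the used reads, as a percentage or as rpm (reads per 1000000 used reads).

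The cells were splenic, CD43-negative and mature by the labels, either uncultured (day 0) or cultured for 2 days with LPS and IL4. They were fixed in 2% formaldehyde. The 4 groups were Med1 mutant resting, Med1 mutant LPS + IL4, WT resting and WT LPS + IL4. The labels do not give the mutant allele, the means of its deletion, the strain or the age, and 4C-seq does not measure Med1, so the genotype could not be checked in these data. The titles of the WT libraries read WTKO while the genotype label reads WT, and the label was followed. One label differs within a group: for WT LPS + IL4 replicate 2 the culture text names anti-CD40 and IL4. Results that turn on that replicate are also given without it.

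Med1 is a subunit of Mediator, the complex that links enhancer-bound factors to RNA polymerase II. The bait lay in Eμ, the enhancer in the intron between the J segments and Ighm. In class switch recombination a B cell exchanges Ighm for a downstream constant gene, and LPS with IL4 is the textbook mixture for switching to Ighg1 and Ighe. Switching needs germline transcription of the target gene. It is also known to need the 3' regulatory region (3'RR), a cluster of enhancers beyond Igha that contacts Eμ across the whole constant region. Igh is transcribed toward lower coordinates, so Igha and the 3'RR lie on the low side of the bait and the VH genes on the high side.

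The primers define the viewpoint that every value below refers to, and are therefore shown, 5′ to 3′ in lower case, as the series' design text gives them.

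4C primer 1: tctgtcctaaaggctctgaga

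4C primer 2: gaacacagaagtatgtgtatgga

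They are 21 and 23 bases long, and neither holds a site of DpnII or Csp6I, the first and second enzyme of the template. The bait end lay at chr12:113426025-113426048.

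The libraries held 2470497 to 21074434 reads, of which 1016043 to 10193114 lay on chromosome 12 over 5 kb from the bait. Mutant LPS + IL4 replicate 2 was by far the deepest. An unlabelled split ran through the libraries. At 87 fragment ends of chromosome 12, mutant 2, mutant 3 and WT 3 had 4.17% to 6.32% of their used reads on either day, while mutant 1, WT 1 and WT 2 had 0.0103% or less. These ends were picked for that contrast, so the percentages describe the selection. Each had 50 reads or more in at least 5 of 6 libraries of the one set and fewer in all 6 of the other. Of chromosome 12, 48259 ends had a read in any of the 12 libraries, and 1 end split the other way. Since both of these sets hold both genotypes, the differences of the windows and shares described are also given within the first set (mutant 1, WT 1, WT 2) and within the second (mutant 2, mutant 3, WT 3). In such a fit the genotype with 1 library a day is assumed to vary like the other. What makes the sets differ was not tested.

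Most activation calls in the constant region were shared by the genotypes. Of 43 windows of 5 kb with enough reads, 20 passed in WT (46.5%) and 20 in the mutant (46.5%) with edgeR. In WT 12 rose (27.9%) and 8 fell (18.6%). In the mutant 11 rose (25.6%) and 9 fell (20.9%). The 2 lists shared 18 windows, 90% of each, all changed in the same direction. With each covered end counted once, edgeR called 0 of 35 windows in WT and 0 of 35 in the mutant, with 2 and 11 at an unadjusted p under 0.05. The median change was then -0.35 in WT and -0.48 in the mutant, while the total of covered ends used as scale rose in both. That count has little room to rise where most ends are covered: 11 to 13 of 13 at the start of Ighd and all 11 at that of Igha. Its 0 calls therefore do not show that changes in reads are absent. Over the 43 windows the WT and mutant changes were correlated (Pearson 0.92, Spearman 0.92), a description over windows that share their libraries and their scaling.

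The change with the lowest p in both genotypes was a loss next to Ighd. The window chr12:113401204-113406203, upstream of the Ighg3 gene and downstream of Ighd, held 2.96% ± 0.355 of the used reads in resting WT cells and 1.058% ± 0.0645 after LPS + IL4 (SD, n = 3). In the mutant it held 2.56% ± 0.193 and 0.897% ± 0.0658. The log2 changes were -1.48 in WT and -1.51 in the mutant, and their difference of -0.03 had a 95% interval from -0.35 to 0.29. Within the library sets the difference was -0.14 and 0.16. Of the 8 windows in the interval from Ighg3 to Ighd, 6 fell in each genotype, beside 8 in WT and 9 in the mutant of all 43. The medians of the 8 were -1.03 in WT and -1.15 in the mutant. The difference between the genotypes was above 0 in 3 of these 8 windows and below 0 in 5, with a median of -0.10.

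**Figure D1:**
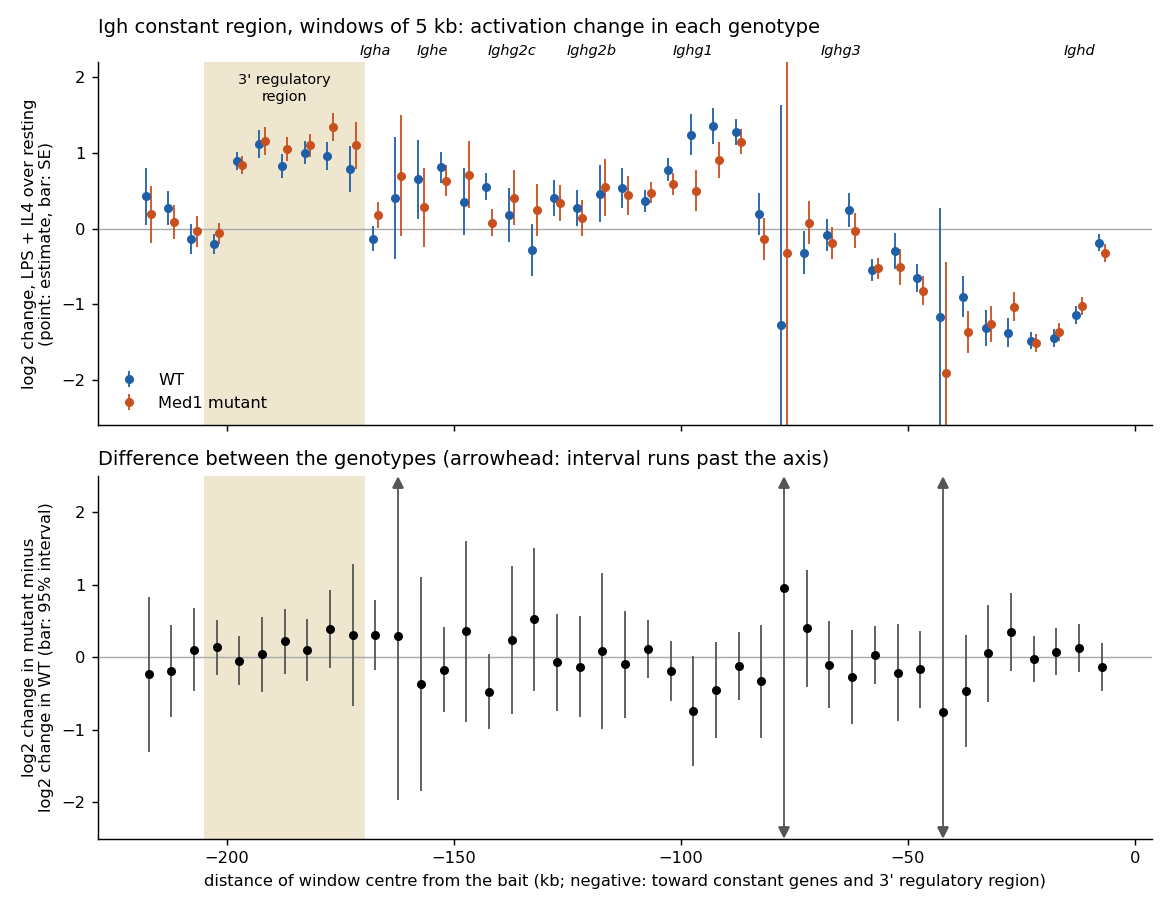
The upper panel plots the log2 change from resting to LPS + IL4 in WT and Med1 mutant cells (point: edgeR estimate, bar: SE, 3 libraries per group) and the lower panel the mutant change minus the WT change (bar: 95% interval) for 43 windows of 5 kb against the distance of the window from the bait in kb. Both genotypes gain over most of the shaded 3' regulatory region and around Ighg1 and lose between Ighg3 and Ighd. Every interval in the lower panel includes 0. Bars that run past an axis belong to windows with few reads, averaging 356, 890 and 2589 per library.

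The interaction itself passed in none of the 5 kb windows. With edgeR 0 of 43 were called (0%), 0 had an unadjusted p under 0.05, and the lowest adjusted p was 0.902. DESeq2 called 0, with 1 at an unadjusted p under 0.05. The estimates were higher in the mutant in 21 windows and lower in 22, with a median of -0.03, and 39 of 43 lay within 0.5 of 0. The precision limits what this shows. The median SE was 0.32, and the 95% interval lay within 1 log2 unit of 0 in 28 windows and within 0.5 in 6. In the other 37 windows the interval reached beyond 0.5 in at least one direction. The windows held a mean of 356 to 111878 reads per library, with a median of 14052 over windows.

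The lowest p belonged to the window that holds Ighg1, the main target of LPS + IL4 switching (chr12:113326204-113331203, 26 fragment ends). In WT cells it rose from 2545 to 5650 rpm in replicate 1, from 1547 to 5101 in replicate 2 and from 2170 to 4035 in replicate 3. In mutant cells the values were 2656 and 4167 in replicate 1, 1979 and 3568 in replicate 2, and 3119 and 3218 in replicate 3. The resting levels of the genotypes overlapped, while after activation 2 of the 3 WT libraries lay above all mutant libraries and the third, at 4035, lay below mutant replicate 1. The log2 change was 1.24 ± 0.27 (SE) in WT (adjusted p = 0.000102, edgeR) and 0.50 ± 0.27 in the mutant (adjusted p = 0.137). A call in WT alone is not a difference: the interaction was -0.74 ± 0.38, with a 95% interval from -1.50 to 0.02 and an adjusted p of 0.902 (edgeR).

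The change by replicate number in the Ighg1 window was 1.15, 1.72 and 0.89 in WT and 0.65, 0.85 and 0.05 in the mutant, so that the 2 sets of changes did not overlap. This window and those below named for a low p were picked for such a difference, so non-overlap in them is not separate support. The difference was -0.74 within the first library set and -0.48 within the second. Without WT 2 on both days it was -0.54. With each covered end counted once, so that read numbers per end do not enter, it was -0.18. The covered ends of this window went from 20, 17 and 20 to 22, 20 and 23 in WT. In the mutant they went from 20, 17 and 20 to 20, 23 and 24. The total of covered ends on chromosome 12 rose by 0.18 more in the mutant (log2). The sign of -0.18 therefore does not show fewer covered ends gained here in the mutant. A single end, chr12:113327919, chosen here after its values were seen, made up 1099 of the 1775 rpm by which the mutant gained less. At this end WT had 250, 724 and 531 rpm at rest and 2114, 1701 and 1244 after activation. The mutant had 822, 627 and 941 at rest and 893, 787 and 968 after activation.

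On the upstream side of Ighg1, where its switch region and germline promoter lie, the next window (chr12:113331204-113336203) rose in both genotypes. WT went from 3697 to 7991, from 3412 to 7774 and from 1831 to 7194 rpm. The mutant went from 2704 to 6870, from 3595 to 4588 and from 2753 to 5507. After activation the 3 mutant libraries lay below the 3 WT libraries, but the changes by replicate overlapped (1.11, 1.19 and 1.97 against 1.35, 0.35 and 1.0). The interaction was -0.45 ± 0.33 (adjusted p = 0.902, edgeR), and it had opposite signs in the library sets, 0.20 in the first and -1.30 in the second. One window further up (chr12:113336204-113341203) the changes were 1.27 in WT and 1.15 in the mutant, an interaction of -0.13 (-0.079 and -0.30 within the sets).

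The window chr12:113281204-113286203, between Ighe and Ighg2c, had the second-lowest p. WT went from 7426 to 8019, from 5083 to 8256 and from 5436 to 10083 rpm, and the mutant from 8397 to 9502, from 6746 to 7272 and from 8734 to 8456. It passed in WT (0.55 ± 0.18, adjusted p = 0.00808, edgeR), and the mutant change was 0.08 ± 0.18 (adjusted p = 0.751). The activated levels were alike in both genotypes, and 2 of the 3 mutant resting libraries lay above all WT resting libraries. The interaction was -0.48 ± 0.26 (95% interval -0.99 to 0.04, adjusted p = 0.902, edgeR), with -0.20 in the first library set and -0.87 in the second.

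Igha, the last constant gene before the 3'RR, had the only start window in which all 3 WT changes lay below 0 and all 3 mutant changes above it (chr12:113256204-113261203). WT had 7512, 8591 and 9125 rpm at rest and 7385, 8114 and 7515 after activation. The mutant had 6943, 8352 and 7956 at rest and 7532, 10398 and 8397 after activation. Neither change passed (WT -0.13 ± 0.17, mutant 0.18 ± 0.17), and the interaction was 0.31 ± 0.24 (95% interval -0.17 to 0.79, adjusted p = 0.902, edgeR). It was 0.17 and 0.48 within the library sets, and -0.22 with each covered end counted once. All 11 ends of this window were covered in every library, so the last value reflects only the total of covered ends used as scale.

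**Figure D2:**
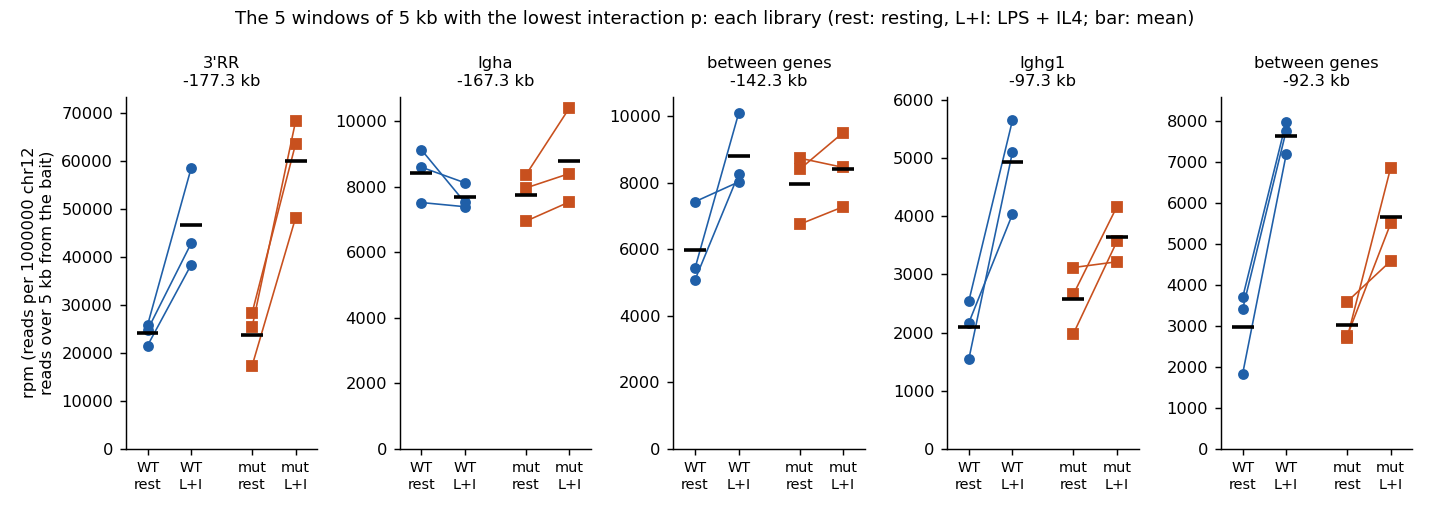
Each panel plots the reads of one 5 kb window, in rpm, in all 12 libraries, with lines joining equal replicate numbers and bars at the mean of 3; the title gives the distance from the bait. In the Ighg1 panel the WT libraries climb to 4035 to 5650 rpm and the mutant libraries to 3218 to 4167.

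At the starts of the other constant genes the differences were small against their errors. Ighe, the second target of LPS + IL4 switching, rose in both genotypes at its start (chr12:113271204-113276203): WT went from 3500 to 6422, from 4123 to 7750 and from 3679 to 5613 rpm, and the mutant from 4013 to 7228, from 4740 to 6861 and from 4001 to 5691. Both changes passed (0.81 ± 0.21 in WT, adjusted p = 0.000738; 0.63 ± 0.21 in the mutant, adjusted p = 0.00818, edgeR). The interaction was -0.17 ± 0.29, and -0.05 and -0.09 within the library sets. For Ighg3, a target of LPS alone, it was -0.27 ± 0.32 (-0.20 and 0.06 within the sets). For Ighg2b it was 0.08 ± 0.53 (0.09 and 0.03) and for Ighg2c 0.23 ± 0.51 (0.37 and -0.10). The window that holds the end of Ighm and the start of Ighd (chr12:113416204-113421203) fell in the mutant (-0.33 ± 0.12, adjusted p = 0.0154, edgeR) and had -0.19 ± 0.12 in WT (adjusted p = 0.21). Its interaction was -0.14 ± 0.16, and -0.12 and -0.11 within the sets. Among the 12 tested windows with a constant gene, 5 were higher in the mutant and 7 lower, against 21 and 22 of all windows.

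The 3'RR, placed here as the 35 kb beyond Igha and not by annotation, gained in both genotypes. Of its 7 windows of 5 kb, 5 rose in WT and 6 in the mutant, beside 12 and 11 of all 43. The medians were 0.89 and 1.10. The window farthest from Igha (chr12:113221204-113226203) had the largest resting share of the 7, 4.59% in WT and 3.99% in the mutant. Its changes were -0.20 and -0.07, and neither passed. The interaction was above 0 in 6 of 7, beside 21 of 43 over all windows, and none passed. It ran from -0.05 to 0.39 with a median of 0.14, beside a median of -0.03 over all windows. The 7 windows of the 3'RR are adjacent and share their libraries and scaling, so they are not 7 separate observations. The highest estimate was that of chr12:113246204-113251203, the 5 kb window with the highest mean read count per library. WT went from 24779 to 42833, from 21526 to 38366 and from 25811 to 58507 rpm. The mutant went from 17284 to 48208, from 28325 to 63617 and from 25339 to 68343. The changes by number overlapped, because WT 3 (1.18) exceeded mutant 2 (1.17). The interaction was 0.39 ± 0.26 (95% interval -0.15 to 0.93, adjusted p = 0.902, edgeR). It was 0.67 in the first library set and 0.12 in the second, and it turned to -0.28 with covered ends and -0.11 with reads capped at the 99th percentile of the ends. The covered-end value has a limit: 14 to 20 of the 22 ends were covered in each library. The total of covered ends on chromosome 12 also rose by 0.18 more in the mutant (log2).

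The division of chromosome 12 into 4 shares gave smaller errors. In the 3' flank, the 780 kb beyond the 5 kb windows, the share went from 11.2% ± 0.233 to 7.60% ± 0.428 in WT and from 10.6% ± 0.256 to 7.90% ± 0.418 in the mutant (SD, n = 3). By replicate number the log2 change was -0.54, -0.52 and -0.62 in WT and -0.36, -0.41 and -0.50 in the mutant. The constant region held 41.2% ± 1.17 and 42.2% ± 1.68 in WT, and 39.7% ± 1.60 and 44.3% ± 1.19 in the mutant. Its changes were 0.02, 0.03 and 0.05 in WT and 0.19, 0.10 and 0.19 in the mutant. The J, D and VH side changed by 0.16, 0.17 and 0.06 in WT and by 0.08, 0.02 and 0.08 in the mutant. The rest of chromosome 12 changed by 0.01, -0.05 and 0.08 in WT and by -0.25, -0.06 and -0.28 in the mutant.

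The mutant and WT changes did not overlap in 3 of the 4 shares: the 3' flank (difference 0.14), the constant region (0.13) and the rest of the chromosome (-0.21). In the last the gap was slight, since WT 2 had -0.0542 and mutant 2 had -0.0579. For each the exact permutation test over the 3 against 3 changes (two-sided, 20 arrangements) gave p = 0.1, the smallest that this design allows, and 0.133 after Benjamini-Hochberg adjustment over 4 shares. For the J, D and VH side the difference was -0.07 (exact permutation p = 0.3). The test sets libraries of equal number within a genotype against each other, although the labels do not say that they are pairs. The edgeR interaction of the same sums, which does not, gave adjusted p-values of 0.169, 0.169, 0.187 and 0.259 in the same order. The 4 shares add up to 100% in each library, so they are not independent of each other.

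The edgeR result on these shares depended on the model. With library set by day as a block, the 3' flank (0.17, adjusted p = 0.000165), the constant region (0.13, adjusted p = 0.000559) and the rest of the chromosome (-0.24, adjusted p = 0.000198) passed. With a replicate block the constant region (adjusted p = 0.0151 within genotype and 0.0384 across genotypes) and the rest of the chromosome (0.0119 and 0.0384) passed, with values of 0.13 and -0.21 as without it. Over 27 or 28 alternatives per share, the constant region passed in 6, the 3' flank and the rest of the chromosome in 4 each, and the J, D and VH side in 1. Not all of these passes are named here, and their number does not rank the shares. The difference of the mean changes within the first and the second set was 0.17 and 0.17 for the 3' flank, 0.16 and 0.10 for the constant region, -0.090 and -0.015 for the J, D and VH side, and -0.23 and -0.25 for the rest of the chromosome. With each covered end counted once all 4 signs turned and lay between -0.11 and 0.02. With capped reads the constant region gave -0.003.

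The difference over the constant region did not pass in the main tests. Within that region the larger mean gain of the mutant, in percentage points, lay in the 3'RR. The 3'RR share went from 12.6% ± 0.996 to 19.0% ± 1.91 in WT and from 12.7% ± 2.11 to 22.9% ± 1.93 in the mutant, a gain of 6.36 percentage points against 10.1. The rest of the constant region changed by -5.39 points in WT (28.6% to 23.2%) and by -5.49 points in the mutant (26.9% to 21.4%). Of the 3.69 points by which the mutant gained more over the constant region, 3.78 were in the 3'RR. This division was chosen after the shares were seen. By number the 3'RR changed by 0.48, 0.64 and 0.64 in WT and by 0.99, 0.64 and 0.93 in the mutant (log2). The sets of changes touched at 0.64: WT 2 had 0.638 and mutant 2 had 0.640. The difference was 0.27, with 0.43 in the first library set and 0.15 in the second. It was -0.08 with covered ends and 0.04 with capped reads.

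Among the 911 fragment ends of the constant region, 1 end had the largest difference in percentage points, a measure that favours ends with many reads. At chr12:113250078-113250101, in the 3'RR, WT had 1.07%, 0.944% and 0.819% of the used reads at rest and 1.74%, 1.53% and 1.78% after activation. The mutant had 0.757%, 0.995% and 0.880% at rest and 2.10%, 2.11% and 2.83% after activation. All 3 activated mutant libraries lay above all activated WT libraries, and the resting levels overlapped. The log2 changes by number overlapped too, with 0.71, 0.70 and 1.12 in WT and 1.47, 1.09 and 1.68 in the mutant. The gain was 0.740 points in WT and 1.47 points in the mutant, a difference of 0.729 points, while the next end, 72 bases away (chr12:113250150-113250173), had a difference of 0.216. It was chosen as the end with the largest difference, so no test is given. After activation it was the most covered end in all 6 libraries.

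**Figure D3:**
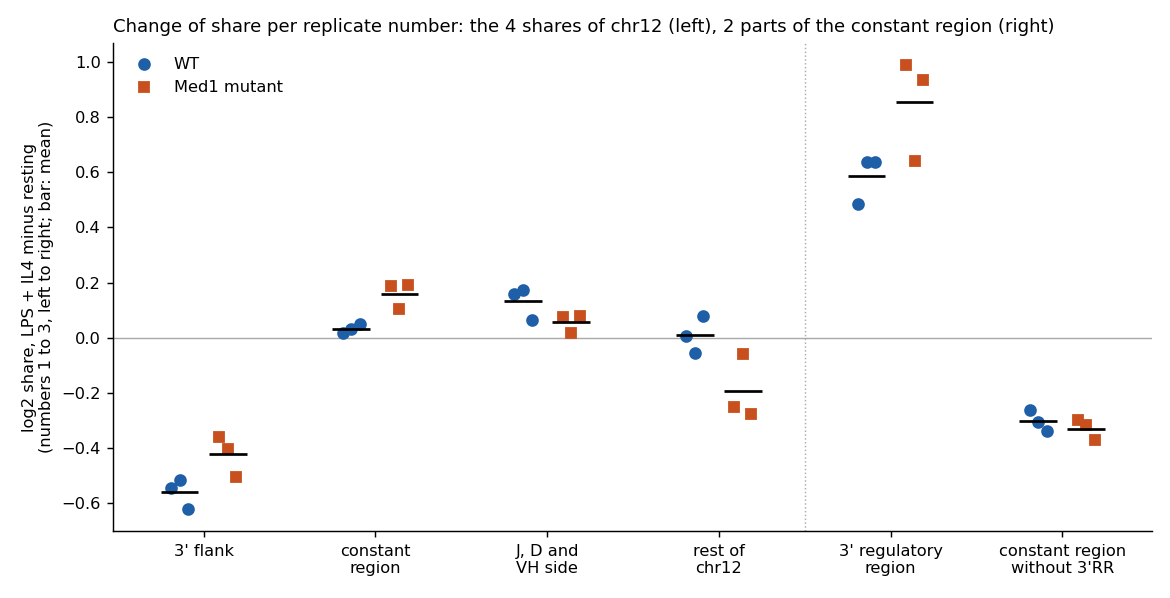
The plot shows the log2 share after LPS + IL4 minus that at rest for replicate numbers 1 to 3 of each genotype (bar: mean of 3), for the 4 shares of chromosome 12 on the left and for 2 parts of the constant region on the right. The WT and mutant points do not overlap in the 3' flank, the constant region and, narrowly, the rest of the chromosome, with differences of the means of 0.14, 0.13 and -0.21, and they overlap in the constant region without the 3'RR.

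Over the wider span no 50 kb window passed. Activation changed 9 of 80 in WT (11.2%) and 8 in the mutant (10%). They shared 6, which is 66.7% of the WT list and 75% of the mutant list, all in the same direction. The WT count was 17 with a replicate block within genotype. The mutant count was 23 with covered ends, 2 in the first library set, 5 with library set by day as a block, 5 without mutant LPS + IL4 replicate 2, 4 without mutant LPS + IL4 replicate 3 and 4 without mutant resting replicate 3. Among the 6 shared windows were the loss over Ighd and Ighm (chr12:113376025-113426024, -1.03 in WT and -0.99 in the mutant, interaction 0.04 with a 95% interval from -0.17 to 0.24, and 0.027 and 0.10 within the library sets) and the gain over Ighg2c and Ighg2b (0.44 and 0.35, interaction -0.09, with -0.012 and -0.23 within the sets). The interaction was called in 0 of 80 with edgeR (0%), had an unadjusted p under 0.05 in 1, and had a lowest adjusted p of 0.949. DESeq2 called 0, with 2 at an unadjusted p under 0.05. The median SE was 0.40, and in 31 windows the 95% interval lay within 1 log2 unit of 0.

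The VH genes, which supply the variable exon before switching takes place, were described by distance from the bait. Of 8 proximal windows (up to 500 kb), 2 had a higher estimate in the mutant and 6 a lower one, with a median of -0.21. Of 20 middle windows, 9 were higher and 11 lower (median -0.23). Of 22 distal windows (from 1500 kb), 15 were higher and 7 lower (median 0.25). Over all 80 windows 41 were higher and 39 lower (median 0.03). In the 3' flank 8 of 16 windows were higher (median 0.00). The widest intervals lay far from the bait.

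**Figure D4:**
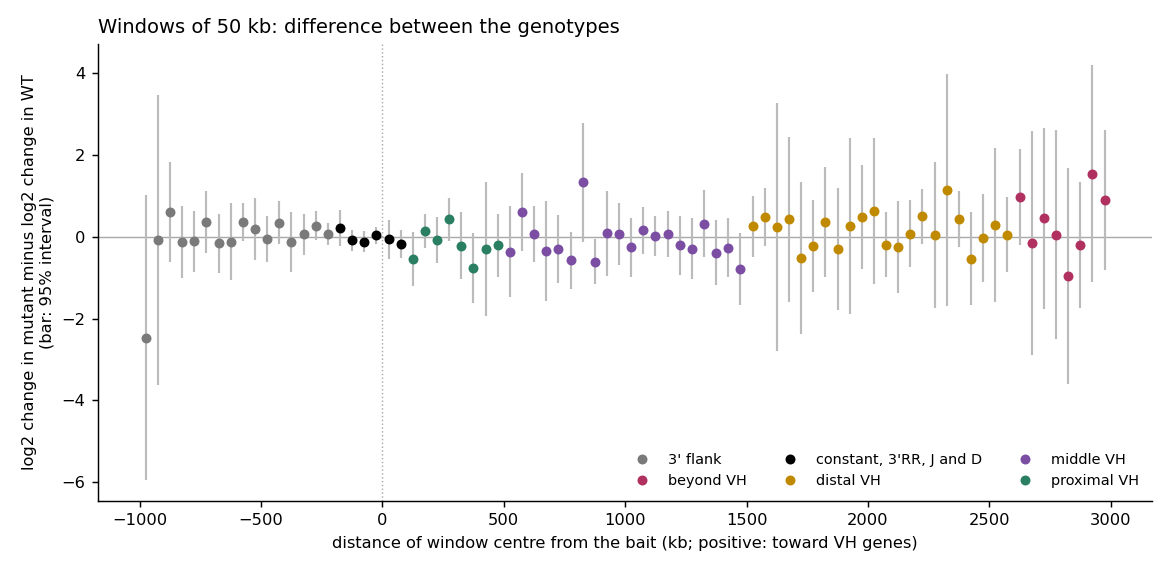
The plot shows the mutant change minus the WT change (log2, point: edgeR estimate, bar: 95% interval) for 80 windows of 50 kb against the distance from the bait in kb, coloured by the part of the locus. The intervals are narrowest over the constant region near the bait, where the SE falls to 0.0987, and widest at both ends of the span; 1 interval, in the middle VH genes, leaves out 0.

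The 3 windows of 50 kb with the lowest p lay among the middle VH genes. The window with Ighv3-6, Ighv9-4, Ighv3-7, Ighv5-21 and Ighv3-8 (chr12:114276025-114326024) had 7899, 8518 and 6972 rpm in resting and 8481, 11088 and 8334 in activated WT cells. In the mutant it had 10687, 8039 and 8598 at rest and 5663, 8760 and 6916 after activation. The interaction was -0.61 ± 0.27 (95% interval -1.16 to -0.06, adjusted p = 0.949, edgeR), and without mutant 1, which went from the highest to the lowest value, it was -0.34. Within the library sets it was -1.17 and -0.34.

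Its neighbour toward the bait (chr12:114226025-114276024, with Ighv3-4, Ighv3-5 and Ighv13-1) ran the other way. WT had 3045, 1256 and 1486 rpm at rest and 2687, 1568 and 1194 after activation, and the mutant 304, 548 and 878 at rest and 1029, 1661 and 1410 after activation. All 3 resting mutant libraries lay below all WT libraries, while the activated levels overlapped. The interaction was 1.33 ± 0.71 (95% interval -0.12 to 2.78, adjusted p = 0.949, edgeR), with changes that did not overlap and 1.77 and 1.42 within the library sets. In the window with Ighv1-36 to Ighv1-40 (chr12:114876025-114926024) WT had 2291, 2040 and 2469 rpm at rest and 3005, 3600 and 3484 after activation. The mutant had 1811, 3752 and 2812 at rest and 1875, 2406 and 2878 after activation. The interaction was -0.80 ± 0.43 (adjusted p = 0.949, edgeR), with -0.56 and -0.81 within the library sets.

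At 100 kb the interaction was again called in 0 of 40 windows with edgeR (0%), with 1 at an unadjusted p under 0.05 and a lowest adjusted p of 0.654. DESeq2 called 0, with 1 at an unadjusted p under 0.05. Activation called 11 windows in WT (27.5%) and 6 in the mutant (15%), with 5 shared, 45.5% of the WT list and 83.3% of the mutant list. These counts moved with the processing. WT had 6 without WT resting replicate 2, 7 without WT LPS + IL4 replicate 1, 4 without WT 2 on both days, and 7 and 3 in the first and the second library set. The mutant had 10 in the first set, 10 with capped reads, where WT had 10, and 11 with covered ends, where WT had 9. The larger number in WT is not a measured difference of the genotypes, since none of these windows passed the interaction test. The 95% interval lay within 1 log2 unit of 0 in 27 windows and within 0.5 in 8.

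In the 100 kb window of lowest p, with Ighv12-2, Ighv9-3, Ighv7-3 and Ighv3-3 among its genes (chr12:114126025-114226024), WT rose from 11029 to 14051, from 6699 to 11454 and from 9073 to 12139 rpm. The mutant went from 11068 to 11375, from 11605 to 12438 and from 11664 to 11000, so the changes did not overlap. The interaction was -0.47 ± 0.23 (95% interval -0.93 to -0.01, adjusted p = 0.654, edgeR), and -0.49 and -0.41 within the library sets. Without WT 2 on both days it was -0.36, and without WT resting replicate 2 it was -0.30. The proximal window with Ighv5-9-1, Ighv2-9-1 and Ighv2-7 (chr12:113726025-113826024) rose in WT from 4164, 5165 and 5132 to 7296, 8337 and 7124 rpm. In the mutant it had 4500, 4610 and 5548 at rest and 4669, 6569 and 5259 after activation. Its interaction was -0.48 ± 0.25 (adjusted p = 0.654, edgeR), with -0.69 and -0.25 within the library sets.

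Past the VH genes, the last window of the span holds Esyt2, a lipid transfer protein of membrane contacts, and Ncapg2, a subunit of condensin II (chr12:116326025-116426024). WT went from 622 to 1732, from 1264 to 2600 and from 2039 to 2202 rpm, and the mutant from 535 to 1666, from 836 to 3512 and from 502 to 2134. It passed in the mutant (1.97 ± 0.51, adjusted p = 0.00466, edgeR), and the WT change was 0.74 ± 0.49 (adjusted p = 0.347). The interaction was 1.23 ± 0.69 (adjusted p = 0.654, edgeR), and 0.44 and 1.97 within the library sets. Without WT resting replicate 3, which had the highest resting level, it was 0.76.

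No alternative brought an interaction call in any window. Under 30 alternatives for each window size, edgeR or DESeq2 called 0 windows, and the number at an unadjusted p under 0.05 reached at most 4 of the 5 kb, 8 of the 50 kb and 9 of the 100 kb windows. All 3 maxima occurred within the first library set, and that at 5 kb also without mutant resting replicate 2. The lowest adjusted p was 0.0949 at 5 kb, within the second library set, 0.298 at 50 kb and 0.0803 at 100 kb. Over all tested windows the interaction in the first set and in the second correlated at a Pearson r of 0.09 at 5 kb (n = 43), 0.06 at 50 kb (n = 80) and -0.07 at 100 kb (n = 40), a description of windows that share libraries within each set.

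**Figure D5:**
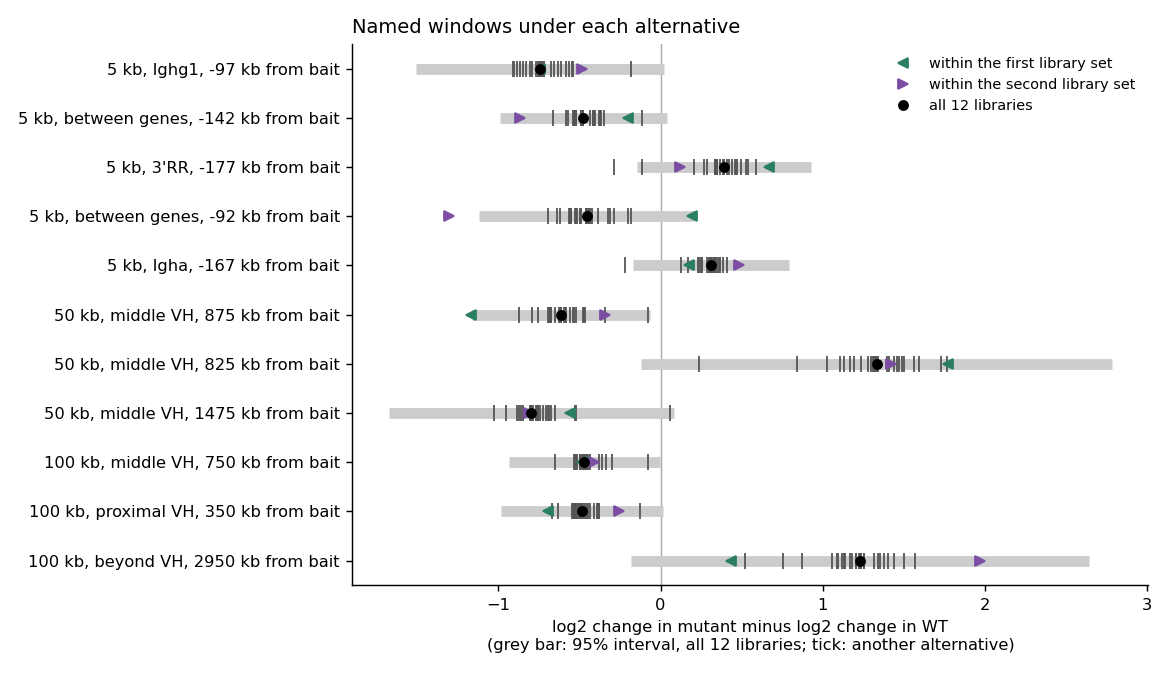
Each row is one of the 11 windows of lowest p, with the mutant change minus the WT change (log2) from all 12 libraries (black), its 95% interval (grey bar), the values within each library set (triangles) and the values under the other alternatives (ticks). The Ighg1 window, picked for its low p, has values below 0 throughout, from -0.91 to -0.18. Its -0.18 is the covered-end value, whose sign depends on the scale. The window upstream of it lies at 0.20 in one library set and -1.30 in the other.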

How the data were processed

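The 12 deposited files hold raw read counts per 24 bp interval at a fragment end; the unit was taken from the whole-number values. Bowtie and mm10 are named in the submitters' processing notes; mapping settings and filters are not given in the sources used here. Reads carry no molecular identifiers, so they count PCR products. The authors did not normalize these counts as far as the files show.

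Reads were summed per window, and a window was tested where it averaged 10 reads or more per library; 2 of the 45 windows of 5 kb lie wholly within 5 kb of the bait and were not tested. Counts were fitted with edgeR 4.0.16 in R 4.3.3 (quasi-likelihood, robust spread, group means of all 12 libraries, library size the used reads of chromosome 12, no TMM factors). Benjamini-Hochberg adjustment of the two-sided p-values ran over all tested windows of one size, with a threshold of 0.05. DESeq2 1.42.0 was an alternative. Region shares were tested by exact permutation of the changes by replicate number. Named windows were the 5 (5 kb) or 3 (50 and 100 kb) of lowest interaction p, the start window of each constant gene and the 3'RR windows as a range; gene positions came from the RefSeq table supplied.

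The comparison, windows and lists were chosen with earlier results of these data known. The labels do not say that replicates are separate animals, so p-values measure the spread between these libraries, which may be technical. Equal replicate numbers were checked as pairs: at 5 kb the correlation of deviations between the days of a number ran from -0.16 to 0.91 (0.018 to 0.55 at 50 kb, 0.086 to 0.43 at 100 kb). Since not every pair was over 0.1 and no label pairs them, the main fit has no block; the permutation test of the shares and the changes given by number do set equal numbers against each other. Leaving out mutant 1 or mutant 2 on both days, and the split of the constant region at the 3'RR, were chosen after seeing the data.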

Additional observations from a re-analysis of the deposited data

Results flagged for a closer look

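In the 5 kb window with the start of Igha (chr12:113256204-113261203) the genotypes moved in opposite directions in every replicate number. The log2 change with LPS + IL4 was -0.02, -0.08 and -0.28 in WT and 0.12, 0.32 and 0.08 in the mutant, a difference of the means of 0.30. The pattern of signs was not tested. The size of the difference was, and did not pass: the edgeR interaction was 0.31 ± 0.24 with an adjusted p of 0.902, and neither genotype's change passed.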

How the results depend on the processing

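The interaction count stayed at 0 in all 30 alternatives per window size, and of 463 values of the 16 named windows 0 passed and 15 changed sign, in 8 windows. Counts of activation calls moved by over 1.5 times as follows. With covered ends they were 0 in WT and 0 in the mutant at 5 kb, and 23 at 50 kb and 11 at 100 kb in the mutant; capped reads gave 10 in the mutant at 100 kb. At 50 kb the replicate block within genotype gave 17 in WT, and in the mutant the set block gave 5, the first library set 2, and single libraries left out 4 to 9. At 100 kb WT had 7 in the first set, 3 in the second, 4 without WT 2 on both days and 6 to 12 with single libraries left out; the mutant had 10 in the first set. The replicate block, within or across genotypes, gave 0 interaction calls at each size; it brought the edgeR constant region (0.13, adjusted p = 0.0151 and 0.0384) and rest of chromosome 12 (-0.21, 0.0119 and 0.0384) past the threshold. Signs turned with covered ends in the windows at 113246204 (-0.28), 113256204 (-0.22), 114876025 (0.056) and 113306204 (-0.25), and with capped reads at 113246204 (-0.11) and 113416204 (0.032). In the first set 113331204 gave 0.20; in the second 113361204 gave 0.060 and 113286204 -0.10. Without mutant 2 on both days 113306204 gave -0.13 and 113286204 -0.20. With single libraries left out 113306204 ran from -0.10 to 0.24 and 113286204 from -0.046 to 0.81. For the shares, covered ends gave -0.0027 (3' flank; edgeR -0.0020), -0.11 (constant region; edgeR -0.10), 0.022 (J, D and VH side; edgeR 0.019), 0.0021 (rest; edgeR 0.0027) and -0.082 (3'RR); capped reads gave -0.0029 (constant region; edgeR -0.0040) and 0.025 (J, D and VH side; edgeR 0.026). At 113256204 all 11 ends were covered in every library, so its covered-end value moved only with the total used as scale. Windows near full coverage leave that count little room to rise. The total of covered ends on chromosome 12 rose by 0.18 more in the mutant (log2), which lowers every covered-end difference. The cause of the other moves was not tested.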

Other observations

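Measures of the libraries themselves were set against the same contrast, as 4 values tested by exact permutation over the 3 against 3 changes by number (smallest possible p = 0.1). The share of reads on chromosome 12 went from 48.1% ± 0.386 to 57.3% ± 1.30 in WT and from 48.2% ± 1.03 to 56.2% ± 1.02 in the mutant (SD, n = 3), a difference of -0.03 on the log2 scale (exact permutation p = 0.3). The share of chromosome 12 reads within 5 kb of the bait was 12.9% and 14.3% in WT and 13.3% and 14.4% in the mutant (exact permutation p = 0.8). The number of covered ends on chromosome 12 was 8450 and 11156 in WT and 7665 and 11812 in the mutant, with the deep mutant LPS + IL4 replicate 2 at 15714 (exact permutation p = 0.8). The most covered single end held 1.19% and 1.68% of the used reads in WT and 1.15% and 2.35% in the mutant, a difference of 0.53 (exact permutation p = 0.1, adjusted over the 4 measures 0.4). After activation it was chr12:113250078 in all 6 libraries, the end picked above for its largest difference, so this p-value is not separate evidence. The log2 rise of the most covered end was 0.69, 0.28 and 0.53 in WT and 0.88, 0.70 and 1.497 in the mutant. At rest it was not the same end in every library. Its part in the differences of the constant region was not tested beyond the capped reads given above.

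Some windows could not bear on the question. The 5 kb window chr12:113346204-113351203, with 3 fragment ends, had an interaction of 0.96 with an SE of 4.06. The window chr12:113381204-113386203, with 6 ends, had -0.75 with an SE of 2.01. At 50 kb the first window of the span, chr12:112426025-112476024, had -2.47 with an SE of 1.69, the lowest estimate of that size.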
